A study of Mus musculus with 32 samples.

Results

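The Pax genes examined here are Pax2, Pax3, Pax5, Pax6, Pax7 and Pax8, the paired-box family members taken by gene name from a table of expression values in mouse embryonic stem cells and retinal organoids. They are 6 of its 55492 rows. The other 3 members of the family, Pax1, Pax4 and Pax9, were also in the table, and their levels are given for comparison.

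Pax proteins are transcription factors that bind DNA through a paired domain, and they set the regional identity of the embryo's nervous system, sense organs and other tissues. Pax6 also has a full homeodomain and is the family member known for specifying the eye field, retina, lens and forebrain. Pax2, Pax5 and Pax8 form a subfamily with a partial homeodomain: Pax2 marks the optic stalk and ventral optic cup, and all of them act at the boundary between midbrain and hindbrain. Pax3 and Pax7 form the subfamily of the dorsal neural tube, dorsal midbrain, neural crest and muscle precursors. Pax6 and Pax2 repress each other where the optic cup meets the optic stalk.

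The 4 kinds of culture were profiled by sequencing of polyadenylated RNA. WT was the Rx:GFP line, named for a fluorescent reporter of Rx (Rax), a retinal transcription factor gene. KO was a line with a knockout of Mettl3, whose product is the methyltransferase that puts m6A (N6-methyladenosine) into messenger RNA. The other kinds shared 1 genotype, WT MTL3-GRBD OE in the Mettl3 KO, meaning that METTL3 joined to a domain called GRBD was overexpressed in knockout cells: the fusion line without Dex, in which the design text calls the fusion protein cytosolic, and the fusion line with Dex (dexamethasone, a synthetic glucocorticoid), in which it is said to be moved to the nucleus. Dex was given at 10 µM, and differentiation medium for all lines held AGN at 0.1 µM. Libraries came from days 0 (stem cells), 2, 4 and 6 (organoids), with 2 per line and day, 32 in all. Day 0 libraries of the fusion line also carry labels with and without Dex, although the treatment protocol lists only the later days. No WT or KO library had Dex, so Dex itself and the moved fusion protein cannot be told apart. The labels do not say whether a line is 1 clone or whether duplicates were separate cultures; duplicates had separate rounds of library preparation and sequencing, so p-values measure the spread between those libraries, which may be technical.

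Levels are FPKM, the fragments of a gene divided by transcript length and library size. Differences are in log2(FPKM + 1); for genes near 0 this scale makes changes look smaller than they are. The test was limma on all 16276 genes with at least 1 FPKM in at least 2 libraries, and calls were made at 0.05 on p-values adjusted over those genes (Benjamini-Hochberg). Every adjusted p below is from that fit unless a left-out library or another setting is named beside it. Estimated depth ran from 28.3 to 54.3 M fragments per library (M, mega; median 37.7), and log2 values of duplicates correlated across genes at 0.992 to 0.996. At this depth 3 fragments corresponded to about 0.0414 FPKM or less for any of the 6 genes over the full length of its longest coding transcript, which covers counting error only. The depth estimate took 280 to 310 bases off each length. With that, or with a shorter transcript, the value would be higher. The Mettl3 transcript was not lower in KO: on day 6 it was at 37.6 ± 0.382 FPKM in KO and 35.7 ± 0.863 FPKM in WT (SD, n = 2 each), and on day 0 it was higher in KO (log2 difference 0.30, limma adjusted p = 0.000417). The whole-gene value does not check a lesion that leaves the transcript in place. In the fusion line without Dex, Mettl3 was at 70.15 FPKM on day 0 and 48.5 on day 6. It was above KO by 0.68 and 0.36 on those days (limma adjusted p = 2.5e-08 and 7.48e-05). On day 6 the 858 tested genes of chromosome 8 were higher in KO than in WT by a median log2 difference of 0.35. Over all tested genes the median was -0.03, and the other chromosomes examined had medians from -0.17 (X) to 0. None of the 6 Pax genes lies on chromosome 8. The cause of that shift and its part in the KO results were not tested. Pluripotency markers, 7 in number, summed to 3169 to 3449.6 FPKM on day 0 in all lines, which fits the stem cell label. The day 6 libraries are labelled as organoids, and the retinal markers Rax and Six6 were at 118 ± 4.71 and 69.7 ± 0.94 FPKM in WT but near absent in KO (0.3 ± 0.0283 and 0.02 ± 0 FPKM). In bulk RNA, fewer cells of a type and less RNA per cell cannot be told apart.

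Promoter sequences at annotated starts are given below for members with large day 4 or day 6 differences. Which starts these cells used was not tested. A RefSeq table (GRCm38.p6) gave windows of 300 bases, from 250 before to 50 after a start, for 5 of the 6 members in 8 windows; Pax3 was not matched. The lines below give 4 windows, 5′ to 3′ on the gene's strand, with matches of searched motifs in capitals. The letters TAATTA, a core that many homeodomains bind, were searched on both strands. The TATA box was searched as TATAAA. The GC box was searched as GGGCGG. Sites of HMG-box proteins were searched by the core ACAAAG. No 2 matches overlapped.
Pax6, first start, chr2:105668646-105668945, plus strand: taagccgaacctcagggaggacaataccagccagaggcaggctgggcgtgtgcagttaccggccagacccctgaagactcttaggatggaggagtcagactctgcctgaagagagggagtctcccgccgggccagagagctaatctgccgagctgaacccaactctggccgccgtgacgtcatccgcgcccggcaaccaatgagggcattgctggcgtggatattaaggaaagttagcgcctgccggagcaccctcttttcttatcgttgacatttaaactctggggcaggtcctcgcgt
Pax6, second start, chr2:105682213-105682512, plus strand: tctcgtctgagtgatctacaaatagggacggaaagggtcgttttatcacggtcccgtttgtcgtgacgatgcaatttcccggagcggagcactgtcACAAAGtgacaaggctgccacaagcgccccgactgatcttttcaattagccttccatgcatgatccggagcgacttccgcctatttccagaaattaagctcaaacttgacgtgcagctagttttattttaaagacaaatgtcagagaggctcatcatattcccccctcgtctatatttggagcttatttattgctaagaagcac
Pax2, chr19:44755502-44755801, plus strand: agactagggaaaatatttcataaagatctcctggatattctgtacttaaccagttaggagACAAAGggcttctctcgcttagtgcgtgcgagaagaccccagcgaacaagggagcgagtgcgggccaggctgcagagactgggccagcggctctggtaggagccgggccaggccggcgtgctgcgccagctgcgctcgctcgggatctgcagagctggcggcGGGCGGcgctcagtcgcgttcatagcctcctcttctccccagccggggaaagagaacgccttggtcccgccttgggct
Pax7, chr4:139832919-139833218, minus strand: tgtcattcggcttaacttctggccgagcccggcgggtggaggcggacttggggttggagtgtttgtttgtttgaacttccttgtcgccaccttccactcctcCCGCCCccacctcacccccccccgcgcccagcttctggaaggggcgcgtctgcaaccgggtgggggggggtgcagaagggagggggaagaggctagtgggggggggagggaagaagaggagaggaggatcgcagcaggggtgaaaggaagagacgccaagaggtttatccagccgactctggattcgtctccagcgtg
The Pax6 window at the second start held 1 ACAAAG and the one at the first start no searched motif, the Pax2 window shown held 1 ACAAAG and 1 GGGCGG, and the Pax7 window held 1 GGGCGG, read on the opposite strand. Of the other Pax2 windows, the first held 1 ACAAAG and the third 1 GGGCGG. Among all 32851 windows of this length, 18.7% held ACAAAG, 35.7% GGGCGG, 13.6% TATAAA and 5.29% TAATTA. Neither TAATTA nor TATAAA was present in any of the members' 8 windows. CG dinucleotides numbered 18 and 16 in the Pax6 windows, 17 in the Pax7 window, 23 in the Pax5 window and 7 in the Pax8 window, and 7, 23 and 30 in the 3 Pax2 windows, of which the second is shown, against a median of 7 over all windows. These matches are a description of the letters only.

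The 6 genes did not share 1 pattern. Pax6 was the most abundant member in every group but WT on day 2, where Pax8 was higher, and it reached at least 109 FPKM in every library of day 6. Pax2 ended high only in WT, with no other library of day 6 above 3.83 FPKM, and Pax3 and Pax7 ended high in KO, lower in the fusion line without Dex, lower again with Dex and lowest in WT. Pax5 was highest on day 4 in every line and Pax8 in WT on day 2, and they did not exceed 1.42 and 1.67 FPKM in any library. Pax1 and Pax9 did not exceed 0.15 and 0.22 FPKM in any library, and Pax4 was listed at 0 in all 32.

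**Figure D1:**
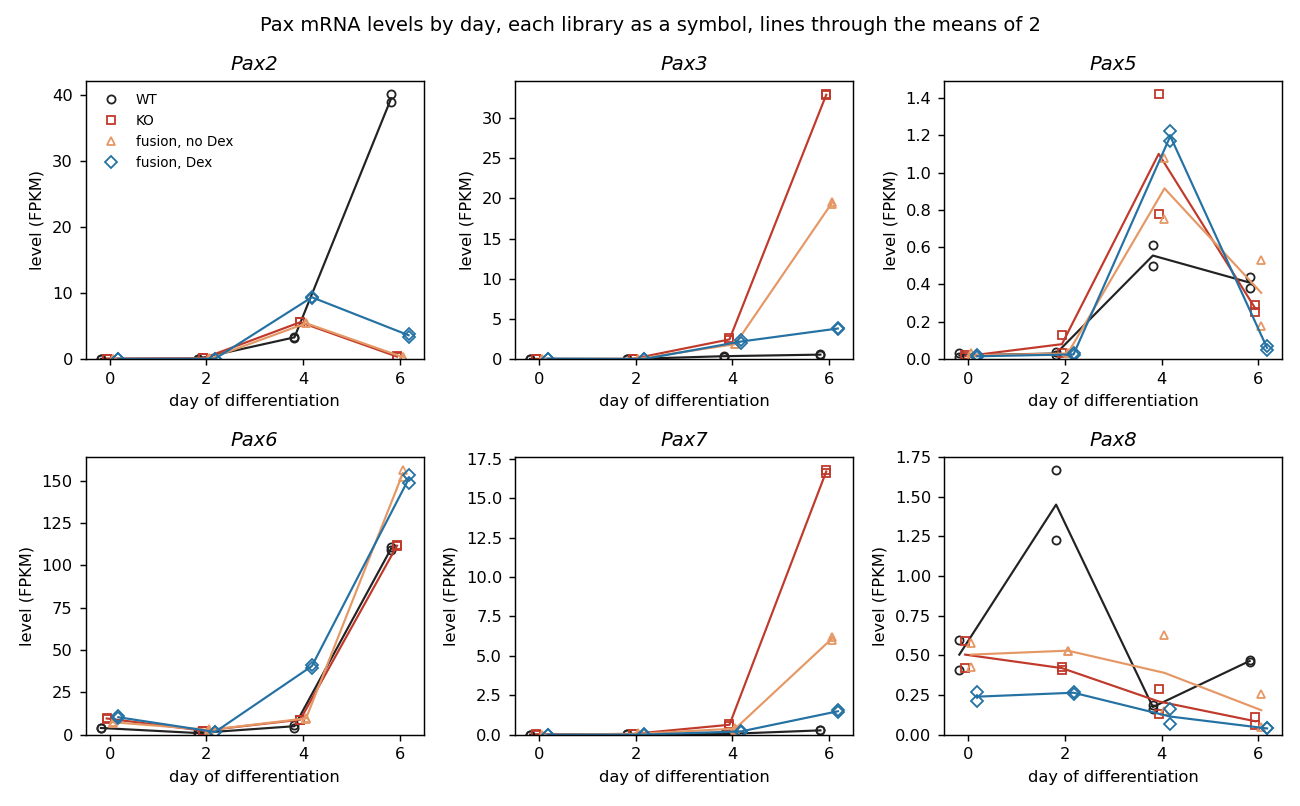
Level of each Pax gene (FPKM, y axis, a separate linear scale per gene) against day of differentiation (x axis, libraries shifted slightly for legibility) for the 4 kinds of culture. Each symbol is 1 library and lines join the means of 2: on day 6 Pax2 is highest in WT, Pax3 and Pax7 are highest in KO, and Pax6 is at 109 FPKM or more in all 4.

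Pax6, the eye-field and forebrain member, lies on GRCm38 chr2:105668900-105697364, plus strand. The stem cells already held it: on day 0 the WT libraries were at 3.94 and 4.09 FPKM, KO at 9.33 and 9.95, the fusion line without Dex at 7.76 and 7.13, and with Dex at 11.1 and 9.67. The WT pair was below all other libraries. Pax6 was higher in KO than in WT by 1.08 (SE 0.15, limma adjusted p = 6.44e-06).

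By day 2 Pax6 had fallen in all 4 kinds of culture. Levels were 0.59 and 1.47 FPKM in WT, 2.47 and 2.38 in KO, 2.38 and 3.38 in the fusion line without Dex, and 1.75 and 1.58 with Dex. Both WT libraries lay below all others, although the duplicates of WT and of the fusion line without Dex were far apart. From day 0 it changed by -1.34 in WT and -1.63 in KO, and by -1.13 and -2.09 in the fusion line without and with Dex (SE 0.15 each, limma adjusted p from 2.75e-10 to 1.42e-06). On day 2 Pax6 remained higher in KO than in WT by 0.79 (limma adjusted p = 0.000143; 0.0718 when only those 2 groups were fitted) and lower with Dex than without, a difference of -0.53 (limma adjusted p = 0.00696). That last call was lost without replicate 2 of the day 2 libraries that had no Dex (a difference of -0.34, limma adjusted p = 0.131), and also without replicate 2 of those that had it (-0.48, limma adjusted p = 0.0513).

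Day 4 separated the cultures with Dex from the others. Pax6 was at 41.5 and 39.6 FPKM with Dex, at 9.42 and 9.96 without it, at 8.99 and 8.84 in KO and at 5.96 and 4.19 in WT. The Dex pair was the highest and the WT pair the lowest. The 7 pluripotency markers ran in the reverse order between those pairs, at 599 to 609 FPKM summed in WT, 281 to 284 in KO, 298 to 304 without and 179 to 181 with Dex, and their part in the day 4 results was not tested. The difference between Dex and no Dex was 1.96 (SE 0.15, limma adjusted p = 4.91e-09), and that between KO and WT was 0.72 (limma adjusted p = 0.000324). Between KO and the fusion line without Dex it was 0.11, with a 95% interval of -0.20 to 0.42.

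On day 6 the lead of the Dex libraries was gone. Pax6 was at 111 and 109 FPKM in WT, 111 and 112 in KO, 156 and 152 in the fusion line without Dex, and 154 and 149 with Dex. Both states of the fusion line were above both other lines, and within each of those pairs the values lay close together. KO and WT differed by 0.02 (95% interval -0.29 to 0.33, limma adjusted p = 0.926), and Dex and no Dex by -0.03 (95% interval -0.34 to 0.28, limma adjusted p = 0.908). The fusion line without Dex was above KO by 0.46 (limma adjusted p = 0.0144), a call that did not hold with a pseudocount of 0.1 (limma adjusted p = 0.112) or without KO replicate 1 (0.0595), KO replicate 2 (0.0535) or replicate 1 of the fusion line (0.0661). Pax6os1, an antisense gene that overlaps the Pax6 gene by 1431 bases, was at no more than 0.42 FPKM in any library; the counting is not stated to use strand.

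Pax2, the optic stalk and ventral optic cup member, lies on GRCm38 chr19:44756045-44837871, plus strand. It was at no more than 0.15 FPKM in every library of days 0 and 2. On day 4 it had appeared in all cultures, at 3.2 and 3.39 FPKM in WT, 5.57 and 5.6 in KO, 5.41 and 5.45 without Dex, and 9.45 and 9.29 with Dex. The WT pair was the lowest and the Dex pair the highest, the reverse of the summed pluripotency markers, as for Pax6 on that day. KO exceeded WT by 0.62 (SE 0.05, limma adjusted p = 1.56e-09), and Dex exceeded no Dex by 0.69 (limma adjusted p = 1.72e-09).

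The order of Pax2 levels turned over by day 6. WT reached 40.1 and 38.9 FPKM, whereas KO was at 0.4 and 0.36, the fusion line without Dex at 0.28 and 0.32, and the fusion line with Dex at 3.39 and 3.83. Only the WT libraries had gained Pax2 since day 4; the other 3 kinds of culture had lost it, least so with Dex. Pax2 was lower in KO than in WT, at a difference of -4.88 (SE 0.05, limma adjusted p = 3.14e-23). It was higher with Dex than without by 1.82 (SE 0.05, limma adjusted p = 1.05e-15), and still lower with Dex than in WT (-3.14, limma adjusted p = 8.92e-20). Between KO and the fusion line without Dex the difference was -0.09 (95% interval -0.19 to 0.02). Markers of kidney, another Pax2 tissue, were low in every line on day 6: the 6 genes summed to 0.68 to 0.73 FPKM in WT, 0.62 to 0.67 in KO, and 0.68 to 1.07 and 0.46 to 0.48 in the fusion line without and with Dex. On that day Cdh16 and Umod were listed at 0 in all lines but WT, where they averaged 0.045 and 0.005 FPKM. Markers of the otic placode, a further Pax2 tissue, summed over 5 genes to 6.01 to 6.27 FPKM in WT and 1.52 to 4.24 in the other lines. Markers of extraembryonic endoderm, a cell type that can arise from embryonic stem cells, were likewise highest in WT on day 6: the 8 genes summed to 114 and 115 FPKM in WT and to between 11.1 and 19.2 elsewhere. The 7 pluripotency markers were also still highest in WT, at 215 to 226 FPKM summed, against 57.2 to 59.6 in KO, 63.5 to 66.7 without and 76.9 to 81.4 with Dex. The part of either list in the result was not tested.

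Pax5, best known from the midbrain-hindbrain boundary and B cells, lies on GRCm38 chr4:44524757-44710487, minus strand. It peaked on day 4 in every line, at 0.61 and 0.5 FPKM in WT, 0.78 and 1.42 in KO, 1.08 and 0.75 without Dex, and 1.22 and 1.17 with Dex. The KO duplicates were far apart, and the libraries of the 3 lines other than WT overlapped. Pax5 was higher in KO than in WT by 0.42 (SE 0.12, limma adjusted p = 0.00425), which fell to 0.20 (limma adjusted p = 0.161) without KO replicate 2. On day 6 the libraries were at 0.38 and 0.44 in WT, 0.29 and 0.25 in KO, 0.18 and 0.53 without Dex, and 0.07 and 0.05 with Dex. With Dex it was lower than without (-0.34, limma adjusted p = 0.0228), and without replicate 2 of the libraries that had no Dex the difference was -0.15 (limma adjusted p = 0.369). The 6 B cell markers summed on day 4 to 1.01 to 1.18 FPKM in WT, 2.74 to 3.15 in KO, 2.13 to 2.38 without and 1.19 to 1.29 with Dex, so that they too were higher in KO than in WT. Among them Ms4a1 and Blk were listed at 0 in all groups of day 4, and Ebf1, which neurons and mesenchyme also express, was the only one to reach 1 FPKM in a group mean of days 4 and 6. Their part in the Pax5 values was not tested.

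Pax8, the member known from thyroid, kidney and the otic placode, lies on GRCm38 chr2:24420560-24475599, minus strand. Its highest values were in WT on day 2, at 1.23 and 1.67 FPKM, when KO was at 0.43 and 0.41, the fusion line without Dex at 0.53 and 0.53, and with Dex at 0.27 and 0.26. Both WT libraries were above all others of that day. Pax8 was lower in KO than in WT, at a difference of -0.78 (SE 0.13, limma adjusted p = 2.75e-05). Thyroid markers, 5 genes, summed to 0.38 to 0.45 FPKM in WT on day 2 with Nkx2-1 listed at 0, and to 1.36 to 1.56 in KO. The 6 kidney markers summed to 5.62 to 6.16 FPKM in WT and 3.28 to 3.74 in KO on that day, with Umod listed at 0 in both, and the 5 otic placode markers to 37.2 to 38.3 in WT and 27.2 to 27.8 in KO. Both lists were thus higher in WT, as Pax8 was, and the thyroid list was lower. Extraembryonic endoderm markers summed to 84.7 to 86.7 FPKM in WT and 7.9 to 8.24 in KO on day 2, and the part of these lists in the result was not tested. On day 6 Pax8 was at 0.47 and 0.46 FPKM in WT, 0.11 and 0.06 in KO, 0.26 and 0.05 without Dex, and 0.04 and 0.04 with Dex, the last near the value of 3 fragments. It was lower in KO than in WT (-0.43, limma adjusted p = 0.00547). Pax5 and Pax8 passed the filter on low values only through their highest groups, with 4 and 2 libraries at 1 FPKM, so their calls are not independent of that filter. For Pax7 the 6 libraries at 1 FPKM were all of day 6 in lines other than WT. For Pax3 the 12 were all of days 4 and 6 in those lines. Calls of Pax3 and Pax7 against WT or against earlier days share that limit.

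Pax3, the dorsal neural tube and neural crest member, lies on GRCm38 chr1:78101267-78197134, minus strand. It was at no more than 0.06 FPKM in any library of days 0 and 2. On day 4 it was at 0.44 and 0.28 FPKM in WT, 2.57 and 2.33 in KO, 1.88 and 1.85 without Dex, and 2.35 and 2.02 with Dex. The WT pair stood below the rest, and the KO and Dex libraries overlapped. KO exceeded WT by 1.34 (SE 0.06, limma adjusted p = 2.84e-13).

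On day 6 the 4 kinds of culture were fully ordered in Pax3. WT was at 0.61 and 0.5 FPKM, the fusion line with Dex at 3.82 and 3.79, without Dex at 19.3 and 19.6, and KO at 33.0 and 32.8. The duplicates differed by far less than neighbouring lines did. Pax3 was higher in KO than in WT by 4.45 (SE 0.06, limma adjusted p = 1.79e-21), lower in the fusion line without Dex than in KO (-0.73, limma adjusted p = 3.98e-09), and lower with Dex than without (-2.09, limma adjusted p = 2.08e-15). With Dex it stayed above WT by 1.63 (limma adjusted p = 1.6e-14).

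Pax7, the close relative of Pax3 that marks dorsal midbrain and muscle stem cells, lies on GRCm38 chr4:139737062-139833528, minus strand. It was at no more than 0.09 FPKM on days 0 and 2. On day 4 it was at 0.05 and 0.04 FPKM in WT, 0.56 and 0.71 in KO, 0.45 and 0.33 without Dex, and 0.26 and 0.17 with Dex. Those pairs did not overlap. The day 4 differences were 0.64 for KO against WT (SE 0.06, limma adjusted p = 5.14e-09), -0.23 for no Dex against KO (limma adjusted p = 0.00366) and -0.19 for Dex against no Dex (limma adjusted p = 0.00833). The last 2 calls were each lost when 1 of 2 libraries was left out: replicate 2 of KO (-0.17, limma adjusted p = 0.0758) or of no Dex (-0.17, 0.0748) for no Dex against KO, and replicate 1 of no Dex (-0.13, 0.135) or replicate 2 of Dex (-0.14, 0.114) for Dex against no Dex.

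Day 6 gave Pax7 the same order of lines as Pax3. WT was at 0.28 and 0.28 FPKM, the fusion line with Dex at 1.54 and 1.44, without Dex at 6.22 and 5.98, and KO at 16.6 and 16.8. No pairs overlapped. Pax7 was higher in KO than in WT by 3.79 (SE 0.06, limma adjusted p = 6.92e-21), lower without Dex than in KO (-1.32, limma adjusted p = 4.78e-13), and lower with Dex than without (-1.51, limma adjusted p = 9.6e-14). With Dex it was above WT by 0.96 (limma adjusted p = 1.56e-11).

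Markers of the cell types in which Pax3 and Pax7 are known were read beside these values. On day 6 the 7 neural crest markers summed to 4.75 to 4.84 FPKM in WT, 55.7 to 56.4 in KO, 59.1 to 59.8 without Dex and 23.95 to 25.09 with Dex. All 7 were called higher in KO than in WT, where 65.1% of all tested genes were called, and 5 of 7 lower with Dex than without, where 42.7% were called, both in either direction. The 6 markers of early neurons summed to 47.3 to 49.7 FPKM in WT, 311 to 315 in KO, and in the fusion line to 255 to 256 without and 152 to 153 with Dex. In the stem cells of day 0 the same list summed to 337 to 341 FPKM in WT and 297 to 311 in KO, so its sum is not specific to neurons. The neural crest list summed to 26.4 to 28.1 FPKM in WT on day 0. On day 2 it summed to 36.5 to 37.3 in WT and 41.75 to 42.27 in KO, so that sum is not specific to neural crest either. Skeletal muscle markers, 6 genes, summed to 3.06 to 3.93 FPKM in every day 6 library, with no order among the lines in the sum. Single genes differed: 1 had a mean of at least 1 FPKM in WT, where Myf5 was listed at 0. In KO and without Dex 2 genes had such a mean, and no gene was listed at 0. The part of neural crest cells and neurons in the Pax3 and Pax7 values was not tested.

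**Figure D2:**
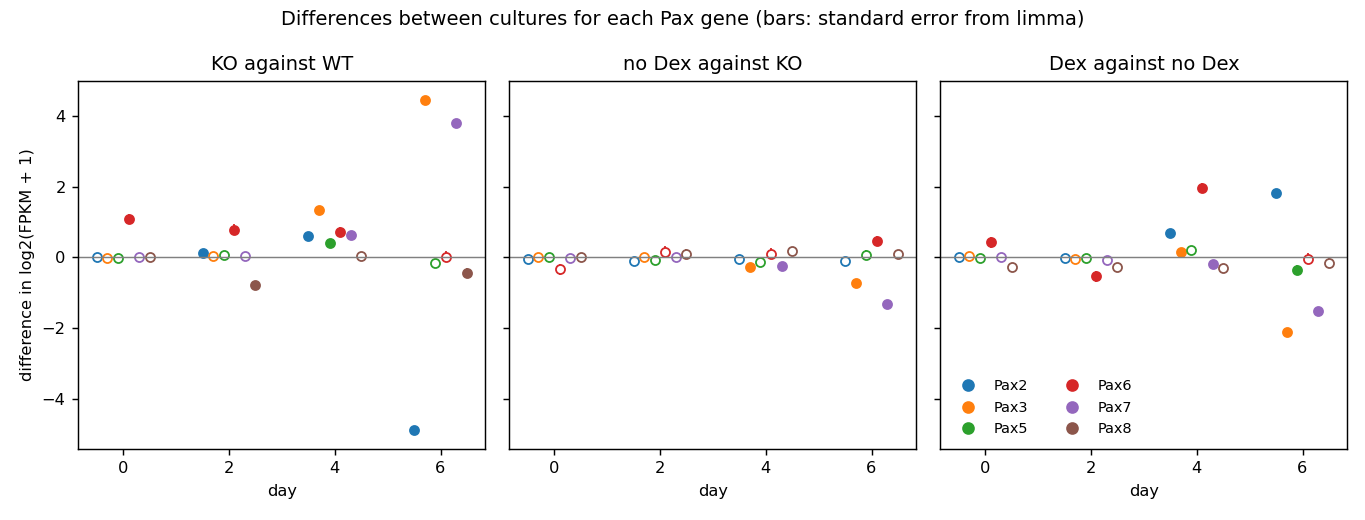
Difference between kinds of culture in log2(FPKM + 1) for each Pax gene (y axis) at days 0, 2, 4 and 6 (x axis, genes side by side), in 3 panels for KO against WT, the fusion line without Dex against KO, and Dex against no Dex. Filled points passed the test, open points did not, and bars are limma's standard errors, mostly smaller than the points; the far points are Pax2 at -4.88, Pax3 at 4.45 and Pax7 at 3.79 in KO against WT on day 6.

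The number of Pax genes called was read against the share of all tested genes called in the same comparison, which was large in this series. For KO against WT, 1 of 6 was called on day 0 (48.2% of all genes), 3 on day 2 (58.9%), 5 on day 4 (60.5%) and 4 on day 6 (65.1%). The day 2 calls were Pax6, Pax8 and Pax2; that of Pax2 (0.045 FPKM in WT and 0.135 in KO, a difference of 0.12, limma adjusted p = 0.042) was lost with any 1 of the 4 libraries left out (limma adjusted p from 0.0608 to 0.187). With a log2 difference of at least 1 also asked for, the day 6 count was 3 of 6, Pax2, Pax3 and Pax7, against 10.0% of all genes, and the day 4 count was 1, Pax3, against 5.54%. On day 4 all 5 called genes were higher in KO, where 36.5% of all genes were called higher; on day 6 Pax3 and Pax7 were higher, and Pax2 and Pax8 lower.

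The fusion line without Dex was set against KO, whose libraries also enter KO against WT, and its own libraries enter the comparison with Dex; differences in comparisons that share libraries are not independent. Against KO, limma called 0 of 6 on day 0 (49.1% of all genes) and 0 on day 2 (37.0%), where unadjusted p-values under 0.05 numbered 1 (Pax6) and 0. On day 4, 2 of 6 were called (26.7%), Pax3 (-0.27, limma adjusted p = 0.00206, and 0.139 with a pseudocount of 0.1) and Pax7, both lower, and on day 6, 3 of 6 (49.0%): Pax3 and Pax7 lower and Pax6 higher. Only Pax7 on day 6 also passed a log2 difference of 1, against 2.03% of all genes.

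With Dex against without, 1 of 6 was called on day 0 (43.4% of all genes), 1 on day 2 (44.3%), 4 on day 4 (40.2%) and 4 on day 6 (42.7%). The day 0 call was Pax6, at a difference of 0.43 (limma adjusted p = 0.026), and it was lost without replicate 1 or 2 of the libraries that had no Dex (0.48, limma adjusted p = 0.0512, and 0.37, 0.133) or replicate 1 of those that had it (0.34, 0.172). On day 4 Pax2, Pax3 and Pax6 were higher and Pax7 lower; Pax3 differed by 0.15 (limma adjusted p = 0.0469; from 0.114 to 0.429 without either replicate of the libraries that had no Dex, or without replicate 1 of those that had it). A log2 difference of at least 1 was reached by Pax6 on day 4, against 0.915% of all genes, and by Pax2, Pax3 and Pax7 on day 6, against 1.52%. On day 6 Pax2 was higher, and Pax3, Pax5 and Pax7 were lower.

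The fusion line with Dex against WT, a comparison that shares its WT libraries with KO against WT, had 1 of 6 called on day 0 (49.8% of all genes), 2 on day 2 (29.4%), 5 on day 4 (44.7%) and 6 on day 6 (61.4%). On day 0 the call was Pax6, by 1.18 (limma adjusted p = 2.06e-06). Day 4 placed Pax2, Pax3 and Pax6 above WT by 1.27, 1.23 and 2.79, against 2.01% of all genes that passed a log2 difference of 1. On day 6 Pax3, Pax6 and Pax7 were above WT, and Pax2, Pax5 and Pax8 below. The smallest of these, Pax6 by 0.45 (limma adjusted p = 0.0129) and Pax5 by -0.41 (0.0047), differed in stability: the Pax6 call was lost without WT replicate 2 (0.0565), without Dex replicate 1 (0.0609) and with a pseudocount of 0.1 (0.102).

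Within each kind of culture the genes were followed from day to day. From day 0 to day 2 the test called 2 of 6 in WT (63.4% of all genes), 1 in KO (65.6%), 1 without Dex (67.9%) and 1 with Dex (60.6%): Pax6 fell in each, and Pax8 rose in WT by 0.70 (limma adjusted p = 7.5e-05). From day 2 to day 4 it called 5 of 6 in WT (59.9%), KO (64.2%), no Dex (60.8%) and Dex (66.7%). Pax2, Pax3, Pax5 and Pax6 rose in all 4, Pax7 rose in all but WT, and Pax8 fell in WT by 1.05 (limma adjusted p = 6.35e-07). The rise of Pax6 in that step was 3.96 with Dex and between 1.47 and 1.60 in the others.

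From day 4 to day 6, 5 of 6 were called in WT (66.7% of all genes), KO (65.3%), no Dex (67.9%) and Dex (65.1%), with directions that differed. Pax6 rose in all 4, by 4.21 in WT and 3.51 in KO, and in the fusion line by 3.86 without and 1.87 with Dex. Pax2 rose by 3.24 in WT and fell by 2.25 in KO, by 2.31 without Dex and by 1.17 with Dex. Pax3 rose by 3.30 in KO and 2.84 without Dex, by 0.60 with Dex, and by 0.19 in WT, the last lost without WT day 4 replicate 2 (0.11, limma adjusted p = 0.153) or WT day 6 replicate 1 (0.14, 0.0858). Pax8 rose in WT by 0.32 (limma adjusted p = 0.0335), a call lost with any 1 of the 4 libraries left out (limma adjusted p from 0.0771 to 0.115). Pax7 rose by 3.44 in KO, 2.35 without Dex, 1.04 with Dex and 0.29 in WT. Pax5 fell by 0.71 in KO, by 0.51 without Dex and by 1.05 with Dex. The test of the difference between these steps called 6 of 6 for KO against WT (48.0% of all genes) and 5 of 6 for Dex against no Dex (41.2%).

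The summed level of the 6 genes on day 6 had another make-up in each line. The sums were 151 ± 2.37 FPKM in WT and 162 ± 0.587 in KO, and in the fusion line 181 ± 2.70 without and 160 ± 3.17 with Dex (SD, n = 2 each). Pax6 made up 72.8 ± 0.167% of the sum in WT, 68.9 ± 0.143% in KO, 85.4 ± 0.288% without and 94.4 ± 0.239% with Dex. The remainder was mostly Pax2 in WT, mostly Pax3 and Pax7 in KO, and small with Dex.

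Pax3 and Pax7 together held 0.551 ± 0.0428% of the sum in WT, 30.6 ± 0.0847% in KO, 14.1 ± 0.211% without and 3.31 ± 0.00801% with Dex. Pax2, Pax5 and Pax8 together held 26.7 ± 0.124% in WT, 0.454 ± 0.0584% in KO, 0.449 ± 0.0771% without and 2.32 ± 0.231% with Dex. Thus the order of the lines in the Pax3 and Pax7 share was the order of their Pax3 and Pax7 levels. Of the sum without Pax6, Pax3 and Pax7 held 2.02 ± 0.145% in WT, 98.5 ± 0.181% in KO, 96.9 ± 0.468% without and 58.8 ± 2.36% with Dex. Pax3 was 1.98 ± 0.278 times Pax7 in WT and 1.97 ± 0.0214 times in KO, lines far apart in level, against 3.19 ± 0.117 without Dex and 2.56 ± 0.107 with Dex. No test was made of these shares and ratios.

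**Figure D3:**
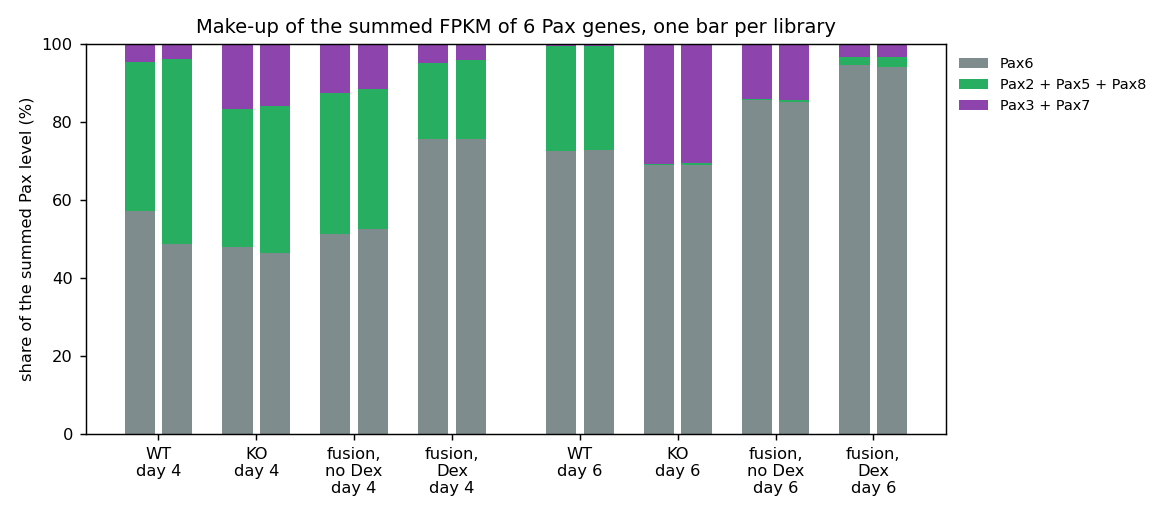
Share of the summed FPKM of the 6 Pax genes (y axis, percent, from 0) held by Pax6, by Pax2, Pax5 and Pax8, and by Pax3 and Pax7, with 1 bar per library for days 4 and 6. On day 6 the part outside Pax6 belongs to the Pax2 group in WT (26.7%) and to Pax3 and Pax7 in KO (30.6%), and it is smallest with Dex.

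Day 4 already differed in make-up. Pax6 was 53.0 ± 5.95% of the sum in WT, 47.2 ± 1.04% in KO, 51.9 ± 0.905% without and 75.6 ± 0.0659% with Dex. Pax3 and Pax7 made up 4.21 ± 0.691% of it in WT and 16.3 ± 0.502% in KO, and 12.1 ± 0.833% and 4.47 ± 0.411% in the fusion line without and with Dex. The share of Pax3 and Pax7 was thus low in WT and with Dex, although the Pax3 libraries with Dex overlapped those of KO in level.

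Across the 16 group means of log2(FPKM + 1), Pax3 and Pax7 had the closest patterns of any pair of members, with a Pearson r of 0.96, followed by Pax3 with Pax6 (0.77) and Pax2 with Pax5 (0.72). Pax2 with Pax3 gave 0.14 and Pax2 with Pax7 -0.03. These values describe groups that share lines and days, and a common rise with time enters them.

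**Figure D4:**
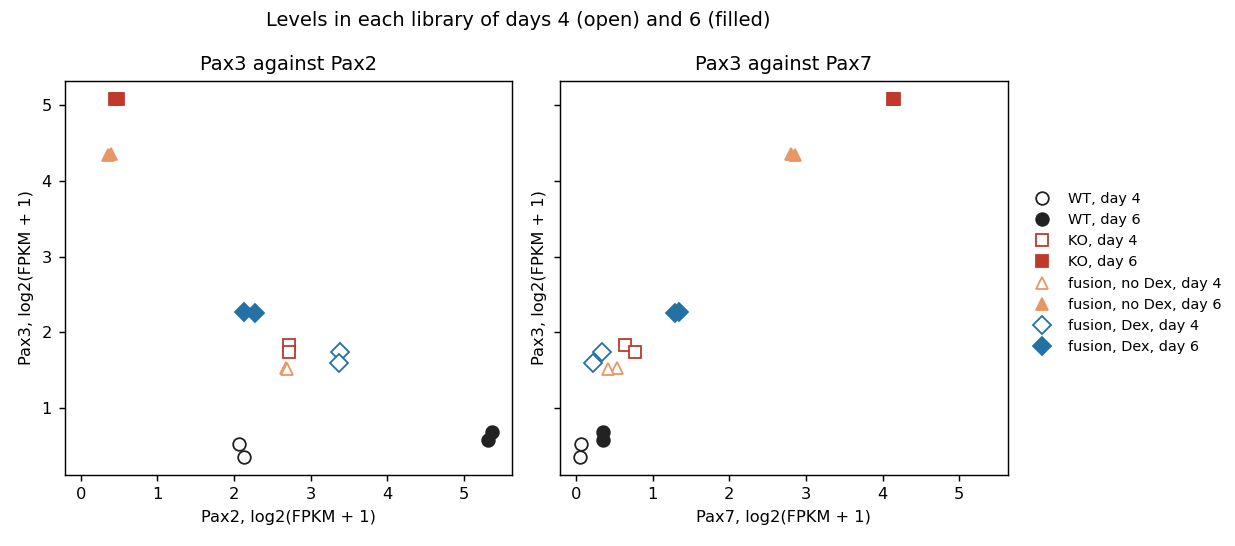
Pax3 against Pax2 (left) and against Pax7 (right) in log2(FPKM + 1), with each library of day 4 as an open and of day 6 as a filled symbol. On the left the day 6 libraries of WT (Pax2 high, Pax3 low) and of KO and the fusion line without Dex (Pax3 high, Pax2 low) lie at opposite corners with Dex between them. On the right Pax3 mostly rises with Pax7, but not along 1 course. Mean Pax3 was 2.185 FPKM with Dex on day 4 and 0.555 in WT on day 6, at Pax7 means of 0.215 and 0.28.

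The genes with patterns most like each member were ranked among 9452 genes by the same r. For Pax2 they were Shisa2 (0.95), an attenuator of Wnt and FGF receptor maturation, Chrdl1 (0.94), a BMP antagonist of the ventral retina, and Irs4 (0.94), an insulin receptor substrate. Shisa2 was at 213 FPKM in WT on day 6, at 7.88 in KO, 4.49 without Dex and 55.0 with Dex. For Pax3 they were Uncx (0.99), a homeobox gene of somites and midbrain, Trabd2b (0.99) and Hes3 (0.98), a Hes repressor known from the midbrain-hindbrain boundary. Hes3 stood at 0.8 FPKM in WT on day 6, 40.2 in KO, 20.6 without and 5.15 with Dex, the same order as Pax3.

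For Pax7 the leading genes were Nhlh2 (0.99), Pcdhac2 (0.99) and Neurod4 (0.99), the first and last of them basic helix-loop-helix factors of newly formed neurons. Nhlh2 was at 0.17 FPKM in WT on day 6, 3.71 in KO, 2.495 without Dex and 0.63 with Dex. For Pax6 they were Rnf165 (0.98), H2-Ke6 (0.97) and Brd3os (0.96). For Pax5 they were Sall3 (0.96), Greb1l (0.96) and Shisal1 (0.95), all highest with Dex on day 4 among the groups of days 4 and 6. Pax8 had weaker matches, Soat2 (0.86), Atp6v1c2 (0.84) and Trf (0.81).

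Genes that work beside the Pax family were read from fixed lists, by counts and medians only, beside the share of all tested genes called in either direction. In KO against WT on day 6, where that share was 65.1%, the 9 eye-field genes had 3 called higher and 6 lower, with a median difference of -3.14 against -0.03 over all tested genes. Rax was at 0.3 FPKM in KO and 118 in WT, Six3 at 0.635 and 132, and Six6, a homeobox gene of the retina, at 0.02 and 69.7. Of 10 optic stalk and optic vesicle genes, 1 was higher and 8 lower, with a median of -1.88. In that list Vax2 fell from 53.6 FPKM in WT to 0.505 in KO, and Vax1 from 44.8 ± 1.73 to 1.33 ± 1.32; Vax1 and Vax2 are homeobox genes of the ventral eye, where Pax2 is also expressed.

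In the same comparison (65.1% of all genes called) the 15 genes of the dorsal neural tube and neural crest had 12 called higher and 2 lower, with a median of 2.20. Msx1, a homeobox gene of the dorsal midline, was at 53.5 FPKM in KO and 1.85 in WT, Tfap2b at 15.5 and 0.475, and Sox10, a neural crest factor, at 14.2 and 0.55. The 13 genes of the midbrain-hindbrain boundary were split, 5 higher and 7 lower (median -0.24). Those named here were chosen by size of change and are all among the higher, so they do not stand for the list. Irx2 was at 103 FPKM in KO and 1.95 in WT, Wnt1 at 58.7 and 1.48, and Irx3 at 96.8 and 4.32.

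With Dex against without on day 6, where 42.7% of all genes were called, 7 of 9 eye-field genes were called higher and 1 lower (median 1.45, against 0.01 over all tested genes), and 9 of 10 optic stalk and vesicle genes higher and 0 lower (median 1.21). Rax was at 54.7 FPKM with Dex and 0.91 without, and Vax2 at 6.55 and 0.125. Boundary genes had 0 of 13 higher and 11 lower (median -0.48), among them Irx2 (7.92 and 35.2 FPKM), Fgf8 (3.95 and 14.6) and Wnt1 (15.1 and 39.3). Dorsal and crest genes had 2 of 15 higher and 10 lower (median -0.65), among them Tfap2b (4.46 and 17.6 FPKM) and Sox10 (7.48 and 18.6). The pigment epithelium markers, a cell type that Pax6 and Pax2 help to specify, summed over 7 genes to 102 to 104 FPKM with Dex, 1.83 to 2.15 without, 2.3 to 2.41 in KO and 16.4 to 17.9 in WT. With Dex and in WT, 4 of them had a mean of at least 1 FPKM. Tyr was listed at 0 in all lines on day 6, and Rpe65 in WT. In WT stem cells of day 0 the list summed to 10.3 to 11.8 FPKM, so its sum is not specific to that cell type.

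Between the fusion line without Dex and KO on day 6, where 49.0% of all genes were called, 13 of 15 dorsal and crest genes were called, 3 higher and 10 lower (median -0.41, against -0.01 over all tested genes). Msx1 was at 20.4 FPKM without Dex and 53.5 in KO, and Zic2, a zinc-finger gene of the dorsal neural tube, at 53.6 and 96.7. Of 9 eye-field genes 4 were higher and 3 lower. Six3, among the higher, was at 11.4 and 0.635 FPKM, whereas the list summed to 438 to 441 FPKM without Dex and 634 to 635 in KO. Optic stalk and vesicle genes had 3 of 10 higher and 3 lower.

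The same lists were read on day 4. In KO against WT, where 60.5% of all genes were called and 36.5% called higher, 10 of 15 dorsal and crest genes were called higher and 1 lower, with Tfap2a at 7.53 FPKM in KO and 0.705 in WT. Boundary genes had 7 of 13 higher and 3 lower, with En1, a homeobox gene of the boundary region, at 9.21 and 0.35 FPKM. Optic stalk and vesicle genes had 3 of 10 higher and 0 lower, a smaller share than that of all genes. With Dex against without, where 40.2% of all genes were called, 6 of 9 eye-field genes were higher and 1 lower, with Rax at 74.5 and 6.47 FPKM and Six3 at 127 and 33.8, on the day when Pax6 also differed most between those cultures.

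Genes whose products bind Pax proteins or act with them, such as the Paxip1 and Kmt2d methyltransferase complex and the Tle corepressors, were counted in the same way. Of 13 tested, 11 were higher and 1 lower in KO against WT on day 4 (60.5% of all genes called, 36.5% higher; median 0.47, against 0.06 over all tested genes), with Meis2, a homeodomain partner of Pax6, at 9.93 FPKM in KO and 1.42 in WT. On day 6 the counts were 6 higher and 4 lower, against 65.1% of all genes called, with Tle2 at 4.17 and 0.66 FPKM and Tle4 at 13.5 and 24.5. Dex against no Dex gave 5 higher and 5 lower on day 6 (42.7% of all genes called). Neighbours of Pax6 on chromosome 2 were read on the day of its largest difference: with Dex against without on day 4, 2 of 5 tested were higher and 0 lower, close to the 40.2% of all genes called, with Elp4, which holds Pax6 enhancers in its introns, at 13.5 and 10.1 FPKM.

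Since the series concerns m6A, the letters GGACT, a common form of the motif at which the mark is written, were counted in the longest coding transcript of each gene (GENCODE M21). Pax6 held 1.81 per kilobase, Pax7 1.54, Pax5 1.25, Pax3 1.04, Pax2 0.918 and Pax8 0.781, against a median of 1.05 over 13588 genes. The members thus lay on both sides of that median. Pax3 and Pax7, which were higher in KO than in WT on day 6, both held fewer per kilobase than Pax6. They held more than Pax2 and Pax8, which were lower in KO on that day. Whether these counts bear on the levels was not tested. These libraries measure RNA levels and hold no measure of m6A itself.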

How the data were processed

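Polyadenylated RNA of 32 libraries was analysed from the deposited table, whose FPKM values the authors made and rounded to 2 decimals; STAR, Cuffdiff and the mm10 build are named in the submitters' processing notes, without versions. FPKM keeps no counts, so library depth was read from the spacing of low values, of which 82.8% to 92.2% were whole fragments to a tolerance of 0.2 (40% by chance). Groups follow the labels. One limma 3.58.1 fit (R 4.3.3; lmFit, contrasts.fit, eBayes with trend) of log2(FPKM + 1) covered 32 libraries and 16 groups, with 16 residual degrees of freedom and two-sided tests, in genes with at least 1 FPKM in 2 libraries. The script was tested on simulated data. Positions come from GENCODE M21 (GRCm38), which held 99.4% of the table's gene IDs.

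The Pax genes and the gene lists were chosen with earlier results of these data known. Named genes were all 6 members, the other Pax genes, the 3 genes with the highest r to each member, up to 3 called genes per list by size of change, and Mettl3; some results under this rule are not reported here. Alternatives were a pseudocount of 0.1, no filter, a mean of at least 1 FPKM, median-of-ratios rescaling, a fit of only the groups compared, a replicate block, and each library left out in turn. The shared replicate numbers did not pair the libraries: deviations of same-numbered libraries correlated between -0.268 and 0.305 over 120 pairs of groups, 23 of them over 0.1.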

Additional observations from a re-analysis of the deposited data

Results flagged for a closer look

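The step from day 4 to day 6 differed between kinds of culture for most Pax genes, by limma's test of the difference between the 2 steps (an interaction term, Benjamini-Hochberg adjusted). For KO against WT all 6 members passed, against 48.0% of all tested genes. Pax2 gained in WT and lost in KO, a difference of -5.49 (limma adjusted p = 1.41e-20). Pax3 and Pax7 gained more in KO, by 3.10 (4.48e-16) and 3.14 (1.7e-16). Pax6 rose less in KO, a difference of -0.70 (limma adjusted p = 0.00983, and 0.0741 without WT day 4 replicate 2, at -0.49). Pax5 differed by -0.57 (0.00771, and 0.0655 without KO day 4 replicate 2, at -0.35) and Pax8 by -0.47 (0.0362). The Pax8 call was lost when any 1 library of WT, day 4 replicate 1 of KO, or either day 6 library of KO was left out (adjusted p up to 0.142).

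For Dex against no Dex, 5 of 6 passed, against 41.2% of all tested genes. Pax2 fell less with Dex, a difference of 1.14 (limma adjusted p = 2.31e-10). Pax3 and Pax7 rose less with Dex, by -2.24 (2.21e-13) and -1.32 (1.68e-10). Pax6 differed by -1.99 (3.71e-07), having risen further by day 4 with Dex. Pax5 differed by -0.54 (0.012), which was lost without replicate 2 of the libraries that had no Dex on day 4 (-0.42, 0.0737) or day 6 (-0.36, 0.0896).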

How the results depend on the processing

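Of 98 calls of Pax genes examined under the alternatives, 77 held under every alternative and with every library left out, among them those of Pax2, Pax3 and Pax7 on day 6; 21 were lost under at least 1, and none reversed. Results that were not called changed sign for Pax2 in no Dex against KO on day 4 with rescaling (0.003), for Pax5 in that comparison without KO replicate 2 (0.1001) or no Dex replicate 2 (0.0031; range with a library left out -0.343 to 0.1001), and for Pax6 in no Dex against KO on day 2 without no Dex replicate 2 (-0.019; range -0.019 to 0.355). The number of the 6 members called moved by over 1.5 times as follows, and the cause was not tested. A pseudocount of 0.1 gave 1 on day 2 and 1 on day 4 for no Dex against KO, 0 on day 0 and 2 on day 2 for Dex against no Dex, 2 for Dex against WT on day 0, and, from day 0 to day 2, 2 in KO, 3 without Dex and 2 with Dex. No filter gave 0 for Dex against no Dex on day 0 and 1 for Dex against WT on day 2. A mean of at least 1 FPKM, under which Pax5 and Pax8 are not tested, gave 1 for Dex against WT on day 2, and in WT 1 from day 0 to 2 and 3 from day 2 to 4. Fitting only the groups compared, which leaves fewer samples, gave 1 for KO against WT on day 2, 1 on day 0 and 0 on day 4 for no Dex against KO, 2 for Dex against no Dex on day 4 and 1 for Dex against WT on day 2. With a library left out the count ran from 1 to 2 for Dex against WT on day 2, 3 to 4 in WT from day 4 to 6, 1 to 3 for no Dex against KO on day 4, and 0 to 1 for Dex against no Dex on days 0 and 2; where this leaves 1 library in a group, it is assumed to vary like the others. The replicate block changed no call (4 of 6 members for KO against WT on day 6 with and without it), and same-numbered libraries deviated together in 65 of 120 pairs of groups. Without a filter 34331 genes were tested and the share of all genes called fell by construction; with only the groups compared it was 20.63% against 48.22% in the fit of all groups for KO against WT on day 0, 24.21% against 37.03% and 14.03% against 26.66% for no Dex against KO on days 2 and 4, and 26.68% against 49.8% and 15.99% against 29.38% for Dex against WT on days 0 and 2. Rescaling moved the median of all genes by over 0.1 in 3 contrasts, from 0.10 to -0.01 without Dex from day 0 to 2, from 0.09 to -0.02 with Dex from day 2 to 4, and from -0.08 to 0.02 in the interaction of KO and WT. For these genes 3 fragments over the full length of the longest coding transcript corresponded to between 0.0069 FPKM (Pax5, deepest library) and 0.0414 FPKM (Pax8, shallowest library).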
